A study of Mus musculus with 59 samples.

Results

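The probes described here are those whose ratio of ASP-treated over untreated RNA was high at 3 and 4 days of treatment and near 0 at 3 h and 1 day. A probe was a member when it had a value on all 59 arrays, a mean log2 ratio of 0.7 or more at both 3 and 4 days of ASP, a mean within 0.3 of 0 at both 3 h and 1 day of ASP, and a mean over 3 and 4 days of α-MSH within 0.4 of 0. Of 38591 probes, 48 met this rule. The members were chosen by their ratios at ASP 3 h, 1 day, 3 days and 4 days and α-MSH 3 and 4 days. Those values, and the calls printed for ASP at 3 and 4 days, are given as a description. ASP at 2 days and α-MSH at 3 h, 1 day and 2 days were not used in the choice, and only the tests of those groups are read as results.

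The cells were melan-a, a mouse melanocyte line of the C57BL6 strain that grows without limit in culture and makes pigment. Each array carried 2 RNAs, one from cells treated with a single agent and one from untreated cells of the same line, labelled with Cy3 and Cy5. The treated cells received either agouti signaling protein (ASP) at 10 nM or α-melanocyte stimulating hormone (α-MSH) at 100 nM at 37 C, for 3 h or for 1, 2, 3 or 4 days. Each of the 10 groups of drug and time had 3 biological replicates, and each replicate was hybridised to 1 array with the treated sample in Cy5 and 1 with the dyes exchanged. The labels do not say which arrays belong to 1 replicate, so the pairs used here are assumed. ASP at 2 days had 5 arrays, and under the pairing used its replicate 3 is 1 array with treated RNA in Cy3. The line is a single established culture, and all values are relative to untreated cells. Whether the untreated RNA was shared between times is not given in the sources used here, so the independence of the time points was not tested.

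Melanocytes carry the melanocortin 1 receptor, a receptor coupled to cyclic AMP. α-MSH activates it, which raises cyclic AMP, the transcription factor MITF and the enzymes that make dark eumelanin. ASP is the natural antagonist and inverse agonist of the same receptor, and it turns pigment cells toward pale pheomelanin and lower expression of the melanogenic enzymes. Such responses build up over days.

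The deposited probe numbers were not paired with gene names in the sources used here, so the members are called by number, no sequence is given, and neither the cell type nor the melanogenic genes were checked through markers. The values are log ratios. They are read as log2 of treated over untreated RNA because the design text writes the ratio in that order. Neither the log base nor the numerator is stated, so the direction is likely rather than known. Arrays held values for 22218 to 38371 probes, and no 2 arrays held the same values. The counts differed by group. With ASP they were 32080 to 38339 at 3 h and 1 day and 29287 to 33370 at 2 days. They were 22218 to 28491 at 3 days and 24334 to 35740 at 4 days. With α-MSH they were 33184 to 38371. The demand for a value on all arrays thus rested mostly on the later ASP arrays, and each array's median was taken over its own probes.

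The rule removed probes in steps. A value on all arrays left 18694 probes, and 526 of these were at 0.7 or more at both 3 and 4 days of ASP. Of the 526, 359 were within 0.3 of 0 at 3 h, and 62 were also within 0.3 at 1 day. The remaining 14 of these 62 fell outside the α-MSH limit, 5 of them above and 9 below. By contrast, 442 of the 526 probes were already at 0.3 or more at 1 day and 1 was at -0.3 or less. The other 83 had a mean within 0.3 of 0 at 1 day, and the limits at 3 h and for α-MSH left 48 of these as members. Over complete probes the median 1-day mean was 0.13, and replicate 1 alone had a median of 0.51. The share of complete probes at 0.3 or more at 1 day, and the count of 442 without that replicate, are not given here. A further 28 probes met every other condition but lacked a value on at least 1 array.

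Some members lay close to a limit. At 3 days the lowest members were 1795960_1 at 0.70, 1778165_1 at 0.73 and 1793940_1 at 0.73, and the nearest probes outside were 1782477_1 at 0.70, 1776333_1 at 0.69 and 1791210_1 at 0.66. At 4 days the lowest members were 1795683_1 at 0.74, 1787354_1 at 0.76 and 1784627_1 at 0.76, against 1787274_1 at 0.70, 1768050_1 at 0.69 and 1775139_1 at 0.68 outside. At 1 day the members nearest the limit were 1769146_1, 1795241_1 and 1793388_1, each at 0.29, and the nearest probes outside were 1783943_1 at 0.31, 1767091_1 at 0.31 and 1793741_1 at 0.32. At each of these 3 times the gap across the limit was under 0.1, and the members' median replicate SD was 0.19 or more. At 3 h the nearest members were 1793940_1 at -0.27, 1796684_1 at 0.26 and 1784627_1 at 0.26, and those outside were 1790700_1 at 0.31, 1796149_1 at 0.32 and 1788573_1 at 0.33. For late α-MSH they were 1766595_1 at 0.37, 1769292_1 at -0.36 and 1783631_1 at -0.36 inside, and 1795285_1 at -0.40, 1797141_1 at -0.41 and 1772754_1 at 0.43 outside.

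One array touched the choice at 1 day. The 1-day array of replicate 1 with treated RNA in Cy5 had a median of -1.44 before centring, while the other 5 arrays of that group had medians between -0.22 and 0.37. In this replicate 71.5% of the 18694 complete probes were above 0.3, and the median complete probe was at 0.51, against -0.05 in both other replicates. The members' median was 0.37 in replicate 1, 0.07 in replicate 2 and 0.03 in replicate 3, and 32 of the 48 members were highest in replicate 1. At 1 day, 26 members were at 0.3 or more in replicate 1, 4 in replicate 2 and 8 in replicate 3, and 9 members were within 0.3 in all 3 replicates. Without replicate 1 the rule gave 98 probes, 41 of them among the 48. Without replicate 2 it gave 42, and without replicate 3 it gave 36, of which 29 were among the 48. At 3 h the members' replicate medians were 0.03, 0.06 and -0.07, and 10 members were within 0.3 in all 3 replicates. "Near 0" at the early times therefore describes the mean of a group, not each replicate.

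**Figure D1:**
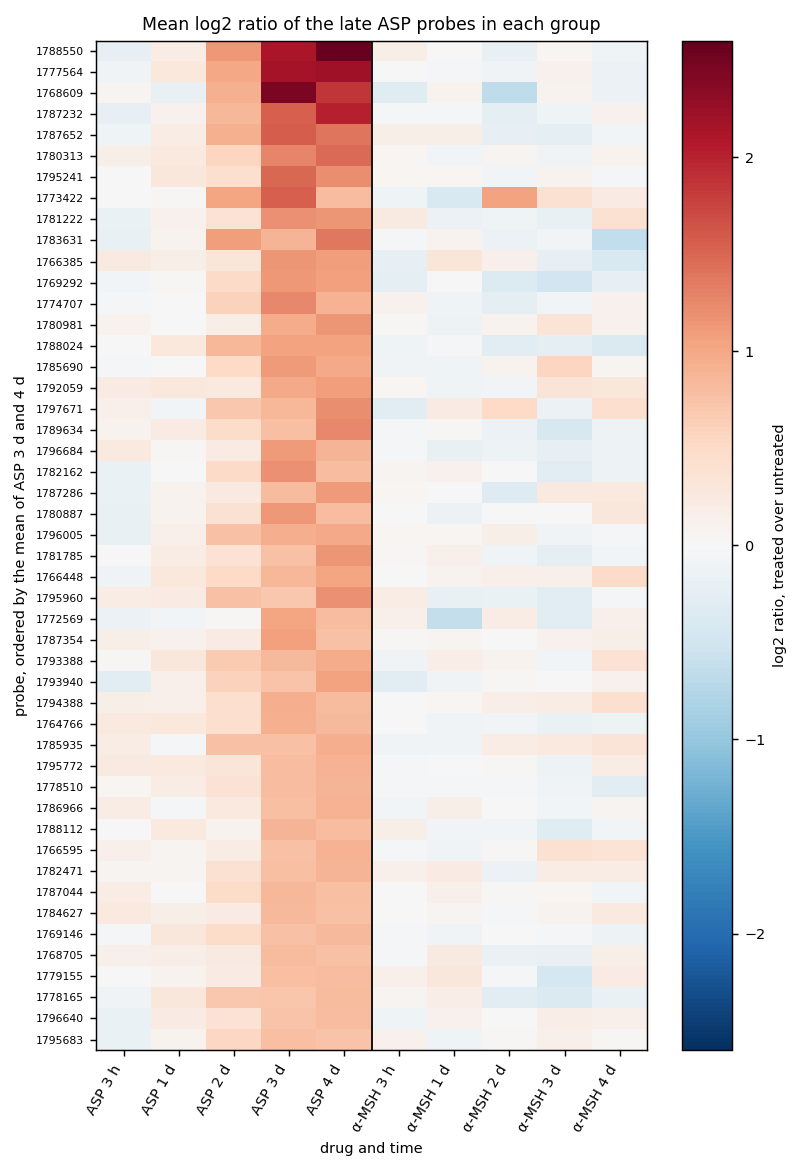
Mean log2 ratio (colour, from blue below 0 to red above 0) of each of the 48 probes (rows, ordered by the mean of ASP 3 and 4 days) in the 10 groups of drug and time (columns, ASP left of the line and α-MSH right). The 2-day ASP mean lies above the 1-day mean and below both late means for 43 of the 48 probes. The α-MSH columns are pale but for single cells such as 1773422_1 at 2 days, at 1.05.

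At 3 and 4 days of ASP the members' mean log2 ratio had a median of 0.95, a 1.94-fold ratio, and ran from 0.76 to 2.34, or 1.70-fold to 5.07-fold. It exceeded 1 for 19 members and 1.5 for 4. All 48 members were above 0 in all 3 replicates at both times, and 38 were above 0 on all 12 arrays, with 10 of 12 as the lowest count. Because these values chose the members, their calls are a description too. At 3 days 45 were called higher, where 7.48% of all probes tested and 7.63% of complete probes were. At 4 days 42 were called higher, where 3.72% of all probes tested and 5.31% of complete probes were. A call is an adjusted p under 0.05 in limma, with Benjamini-Hochberg adjustment over all probes tested. The same 42 were called at both times.

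Probe 1788550_1 had the largest late mean. Its 3 replicates were 2.39, 2.50 and 1.45 at 3 days and 2.12, 3.68 and 1.91 at 4 days, with means of 2.11 ± 0.58 and 2.57 ± 0.96 (SD, n = 3). Replicate 2 was highest at both times. Probe 1777564_1 was steadier, at 1.96, 2.29 and 2.27 at 3 days and 1.71, 2.34 and 2.55 at 4 days, and its means of 2.17 ± 0.18 and 2.20 ± 0.43 (SD, n = 3) lay within each other's spread. Probe 1768609_1 had the highest 3-day mean of all members, 2.45 ± 0.18, from replicates of 2.63, 2.26 and 2.46. At 4 days it was at 2.38, 2.14 and 1.07, and replicate 3 stood below the others.

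The fourth member over 1.5 was 1787232_1. Its replicates were 0.86, 1.86 and 1.96 at 3 days, where replicate 1 was low, and 2.56, 1.87 and 1.62 at 4 days, where replicate 1 was the highest. Its 3-day SD of 0.61 was the second largest among the members. Probes 1787652_1 and 1780313_1 followed, with late means of 1.48 and 1.37. For 1787652_1 they were 1.68, 1.73 and 1.28 at 3 days and 1.43, 1.30 and 1.43 at 4 days, and for 1780313_1 they were 1.06, 1.39 and 1.34 at 3 days and 1.34, 1.37 and 1.72 at 4 days.

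The next members in order differed in which of the late times was higher. Probe 1795241_1 was at 2.04, 1.52 and 0.94 at 3 days and 1.55, 1.45 and 0.63 at 4 days, lowest in replicate 3 both times. Probe 1773422_1 was at 1.26, 1.70 and 1.72 at 3 days and at 0.57, 0.72 and 1.10 at 4 days, so its 3 later values all lay below its 3 earlier ones. Probe 1783631_1 went the other way, from 1.46, 0.82 and 0.37 at 3 days to 1.91, 1.15 and 1.05 at 4 days, with overlapping replicates. Probes 1781222_1, 1766385_1 and 1769292_1 complete the 12 largest, with late means of 1.17, 1.11 and 1.09.

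**Figure D2:**
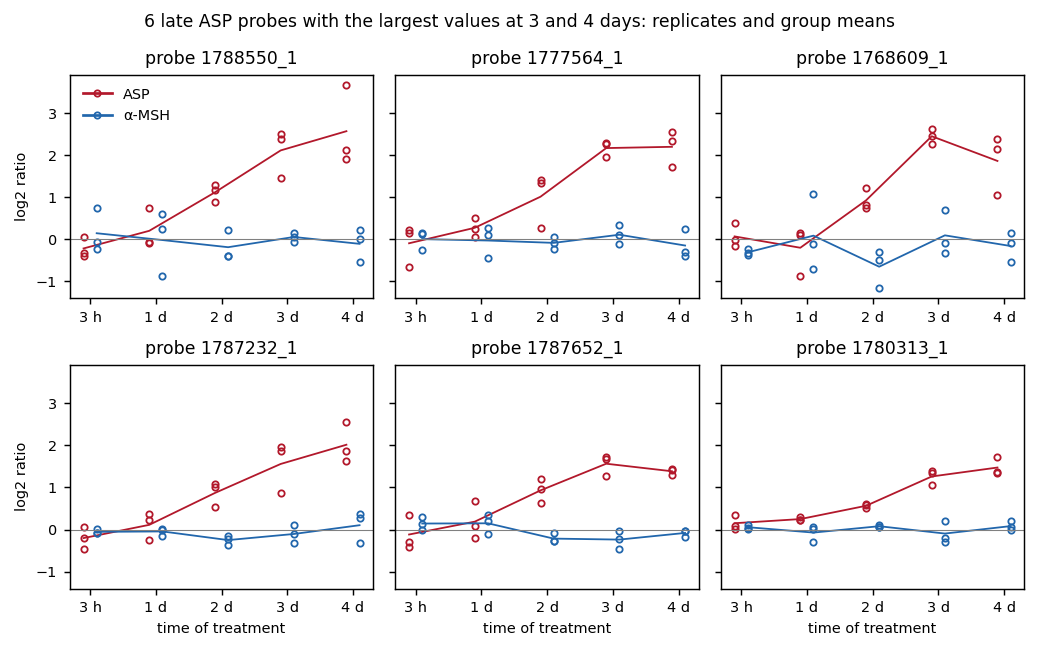
Log2 ratio (vertical axis) at the 5 times of treatment (horizontal axis) for the 6 probes with the largest late ASP means. Circles are the 3 replicates and lines join group means, red for ASP and blue for α-MSH. Probe 1788550_1 reaches 3.68 in replicate 2 at 4 days, and 1780313_1 has the narrowest ASP replicates at 2 days, with an SD of 0.04.

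Over all 48 members, 26 had the higher mean at 4 days and 22 at 3 days, and the means of 29 differed by 0.2 or less. The replicates were closer together at 3 days, where the members' medians were 0.94, 0.97 and 0.93, than at 4 days, where they were 1.03, 1.15 and 0.78. At 4 days 32 of the 48 were lowest in replicate 3 and 20 were highest in replicate 2. The members' median SD was 0.19 at 3 days and 0.32 at 4 days, and over complete probes it was 0.16 and 0.19. The largest 3-day SDs were 0.72 for 1774707_1, whose replicate 2 of 2.06 stood above 0.93 and 0.73, and 0.61, 0.58 and 0.55 for 1787232_1, 1788550_1 and 1795241_1. The smallest was 0.05 for 1778510_1, at 0.77, 0.86 and 0.77, followed by 0.08 for 1786966_1 and 1780887_1 and 0.10 for 1785690_1. At 4 days 1786966_1 was at 0.97, 1.59 and 0.17.

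The 2-day ASP group, which the rule did not use, showed whether the members were already higher by then. The members' mean log2 ratio at 2 days had a median of 0.47, a 1.39-fold ratio, and ran from 0.04 to 1.12. All 48 means were above 0, where 47.6% of the 36347 probes tested were, and the median of all probes tested was -0.02. In all, 13 of 48 members rose at an adjusted p under 0.05, where 1.7% of all probes tested were called higher. Of the 18694 complete probes, from which the members came, 2.26% were called higher. No member fell, where 1.97% of all probes tested were called lower. At an unadjusted p under 0.05, 35 members were higher and 0 lower, against 7.98% and 9.47% of all probes tested. The calls depended on each replicate: without replicate 1, 5 members were called, 4 of them among the 13, without replicate 2, 11, with 7 among the 13, and without replicate 3, 7, all among the 13. With the spread taken from the 2-day replicates alone no member was called, and with that of the ASP groups alone 2 were. The share of all probes called in these fits is not given here. In these fits, a change in the number of members called therefore cannot be told from a change in calls over all probes.

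The 3 replicates gave similar member medians at 2 days, of 0.56, 0.54 and 0.50 (mean 0.53 ± 0.03 SD, n = 3), although replicate 3 rests on 1 array. Across complete probes the agreement was weaker. Replicates 1 and 2 correlated at 0.45, and replicate 3 correlated with them at 0.25 and 0.33, against 0.64 to 0.68 at 3 days. In all 3 replicates 35 of the 48 members were above 0, against 22.4% of complete probes, and 19 members were above 0 on all 5 arrays. The means were at 0.7 or more for 12 members, from 0.3 to under 0.7 for 24 and under 0.3 for 12, and 1.98% of complete probes were at 0.7 or more. The 2-day mean was above the 1-day mean for 46 members and below both later means for 45. It amounted to 46.8% of the late mean in the median member, from 4.17% to 96.5%. The rule held the 1-day mean near 0 and the late means high, so these counts and shares are partly set by the choice. They are a description. The members' median SD of 0.30 exceeded the 0.22 of complete probes, and 10 members had an SD over 0.5.

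Probe 1787652_1 had the smallest adjusted p of the members at 2 days. Its replicates were 0.96, 1.21 and 0.63, all above its 3 α-MSH values at the same time, and its mean of 0.93 with a limma SE of 0.16 had an adjusted p of 0.0015. Probe 1780313_1 rose less but evenly, at 0.58, 0.60 and 0.52, with a mean of 0.56 (SE 0.11) and an adjusted p of 0.0061. Probe 1785935_1 was at 0.83, 0.97 and 0.48, with a mean of 0.76 (SE 0.15) and an adjusted p of 0.0064, and its 2-day mean was 88.8% of its late mean. These 3 were above 0 in every replicate and had an SE of 0.16 or less.

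Probe 1777564_1 rose unevenly. Its replicates were 1.41, 1.35 and 0.28, the last from the lone array, with a mean of 1.01 (SE 0.21) and an adjusted p of 0.0065. Probe 1778165_1 had 0.64, 0.36 and 1.13, with a mean of 0.71 and an adjusted p of 0.0101. Here the lone array was the highest of the 3. For 1787232_1 the replicates were 0.53, 1.01 and 1.07 and the mean 0.87 (adjusted p = 0.0117), and for 1788024_1 they were 1.28, 0.90 and 0.43 and the mean again 0.87 (adjusted p = 0.0123). Probe 1797671_1 was at 0.78, 0.63 and 0.68, a mean of 0.70 with an SD of 0.08 (adjusted p = 0.0159).

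The other 5 members called at 2 days were 1793388_1, 1796005_1, 1793940_1, 1783631_1 and 1788550_1, with adjusted p-values between 0.0164 and 0.0317. Probe 1788550_1, with the largest late mean, also had the largest 2-day mean, 1.12, from 1.30, 1.17 and 0.88. Probe 1783631_1 was second, at 1.03, 0.77 and 1.46, and reached 96.5% of its late mean by 2 days. The 13 called members had means from 0.56 to 1.12 and were above 0 in all 3 replicates, as were 22 of the 35 that were not called. All 13 were also among those called at 3 and 4 days, but the rule used those times, so the overlap is a description only. Over 15 alternative fits each of the 13 was called in 8 or more, 1787652_1 in 14 and 1780313_1 in 13, and 19 of the 35 other members were called in none.

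Of the 12 members at 0.7 or more at 2 days, 3 missed the threshold. Probe 1768609_1, at 0.81, 1.22 and 0.75, had a mean of 0.93 (SE 0.28) and an adjusted p of 0.0608. Probe 1773422_1, at 1.58, 0.95 and 0.54, had a mean of 1.02 (SE 0.35) and an adjusted p of 0.103. Probe 1795960_1 spread from 0.20 to 1.39 with 0.72 between, a mean of 0.77 (SE 0.23) and an adjusted p of 0.0626. All 3 were above 0 in every replicate. At the low end, 1772569_1 was at 0.32, -0.22 and 0.01 and 1788112_1 at -0.43, 0.25 and 0.47, with means of 0.04 and 0.10. Probes 1780981_1 and 1766595_1 followed with means of 0.16 and 0.20, and their replicates too lay on both sides of 0. For these 4 a difference from untreated cells was not detectable at 2 days, while their means at 3 and 4 days were at 0.7 or more by the rule.

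**Figure D3:**
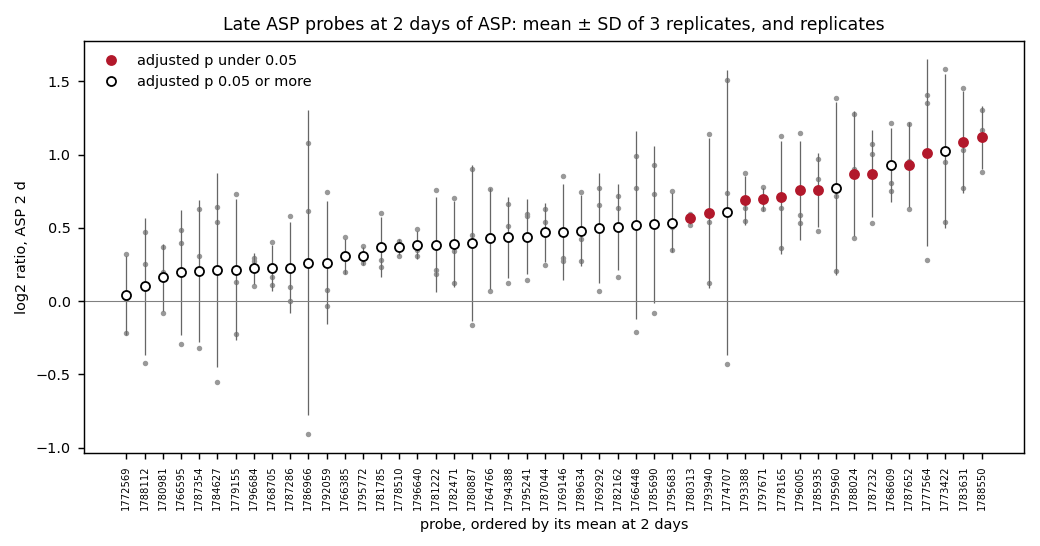
Log2 ratio at 2 days of ASP (vertical axis) for the 48 probes (horizontal axis, ordered by mean). Circles and bars are the mean ± SD of 3 replicates, small points the replicates, and filled circles the 13 probes with an adjusted p under 0.05. Every mean is above 0, from 0.04 to 1.12, while single replicates reach down to -0.91 for 1786966_1.

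Between the 2-day ASP mean and the late ASP mean, which the rule bounded from below, Spearman's rho across the 48 probes was 0.48. It was 0.33 across the 44 left without the 4 members over 1.5. This is a description across probes of the same arrays, which share their arrays and the correction for dye and are not independent replicates. Next to the members stand the 442 late ASP probes already at 0.3 or more at 1 day, a split made on the 1-day values. In replicate 1 at 1 day the median complete probe was at 0.51, and without that replicate the rule gave 98 probes in place of 48. The split thus depends in part on that replicate. At 2 days these 442 had a median of 0.71 against 0.47 in the members, with replicate medians of 0.77, 0.79 and 0.57. Of these, 50.5% were called higher at 2 days, against 27.1% of the members, and their 2-day mean was 63.2% of the late mean in the median probe, against 46.8%. The late means themselves were close, with medians of 1.06 and 0.95. The members' median at 2 days was thus below that of these 442 probes in each of the 3 replicates, and that difference was not tested.

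The members' median at 2 days was 0.58 on arrays with the treated sample in Cy5 and 0.48 on those with it in Cy3. The dye effect of a probe, estimated over all ASP arrays and removed before averaging, had a median of -0.01 in the members and ran from -0.53 to 0.39, while its median over complete probes was 0.16. For 12 of the 48 members the 2-day mean had opposite signs in the 2 dye orientations before this removal, against 53.7% of complete probes, and none of the 12 was called at 2 days. Among them, 1774707_1 had a mean of -0.44 on the 2 arrays with the treated sample in Cy5 and 1.17 on the 3 reverse arrays, and its replicates were -0.43, 0.74 and 1.51. For 1787286_1 the means were -0.39 and 0.82, and for 1784627_1 they ran the other way, 1.03 and -0.09.

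With α-MSH, the agonist of the same receptor, no member was called at 3 h, 1 day or 2 days. No probe at all was called at these times in limma (0% of 38445, 38505 and 38490 probes tested), so the absence of calls says little of the members. At an unadjusted p under 0.05 there was 1 member at 3 h, 0 at 1 day and 3 at 2 days, against 1.42%, 2.24% and 2.35% of all probes tested. The members' median log2 ratio was 0.00 at 3 h, -0.01 at 1 day and -0.04 at 2 days. Means of 0.3 or more in either direction were found for 2, 4 and 5 of the 48, against 0.776%, 3.03% and 4.34% of complete probes. The α-MSH replicates differed from each other. At 3 h replicates 1 and 2 were opposed, with a correlation of -0.81 across 18694 probes. The other correlations within an α-MSH group ran from -0.08 to 0.28. Averaging opposed replicates draws a mean toward 0, so the 3 h values near 0 do not show a lack of response. The cause of the opposition was not tested. The 3 replicates at 3 h fall in different runs of database numbers. At 2 days the members' median was -0.07 in run A and -0.06 and 0.00 in the 2 replicates of run B.

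At 2 days of α-MSH, 3 of the 48 members had an unadjusted p under 0.05. Probe 1773422_1 was at 2.21, 0.51 and 0.42, with a mean of 1.05 that rested largely on replicate 1. Probe 1797671_1 was at 0.81, 0.23 and 0.55, with a mean of 0.53. Probe 1768609_1 went the other way, at -0.31, -0.48 and -1.16, with a mean of -0.65. Each had the same sign in all 3 replicates, and each had an adjusted p of 1. The widest spread was that of 1772569_1, at -1.33, 0.06 and 1.82, also the member with the lowest ASP mean at that time. At the late α-MSH times, which the rule used, the members' medians were -0.07 at 3 days and 0.08 at 4 days.

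**Figure D4:**
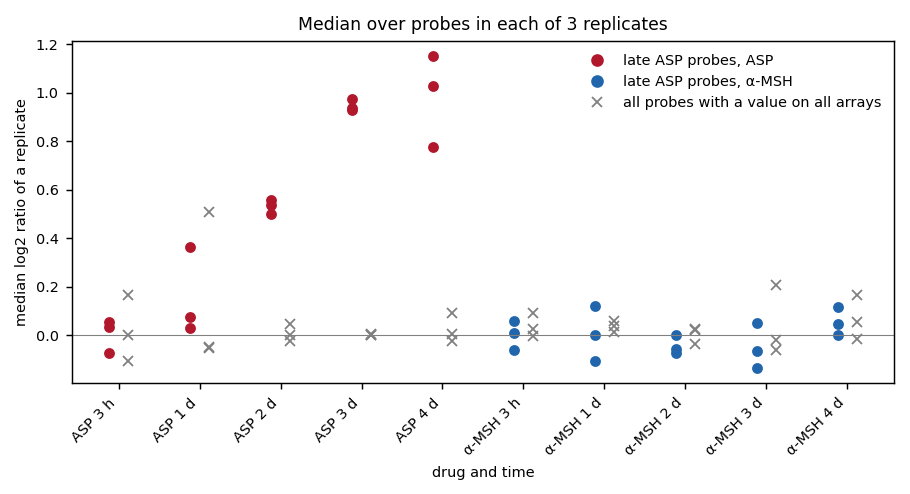
Median log2 ratio (vertical axis) of each of the 3 replicates in each group of drug and time (horizontal axis). Filled circles are the median over the 48 probes, red for ASP and blue for α-MSH, and grey crosses the median over all 18694 complete probes. The red points sit at 0.50 to 0.56 at 2 days and at 0.78 to 1.15 at 3 and 4 days, the blue points stay between -0.13 and 0.12, and the cross at 0.51 is ASP 1-day replicate 1.

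At 2 days the 2 drugs could be set against each other on values that chose no member. The doses differ, 10 nM for ASP and 100 nM for α-MSH, and all ASP arrays are in a run of database numbers of their own, so drug and run cannot be told apart. ASP minus α-MSH was above 0 for 46 of 48 members, with a median of 0.48 against -0.01 over all probes tested. In limma, 5 of 48 members were higher with ASP at an adjusted p under 0.05, where 0.51% of all probes tested were called higher, and none was lower, where 0.515% were. At an unadjusted p under 0.05 there were 20 members higher and 0 lower, against 5.25% and 6.34% of all probes tested. All 3 ASP replicates lay above all 3 α-MSH replicates for 27 members, against 11.5% of complete probes. The 5 calls were fragile: leaving out any 1 of the 6 replicates gave 1 to 3 calls, 1 each without ASP replicate 1 and without each α-MSH replicate, 2 without ASP replicate 2 and 3 without ASP replicate 3.

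The largest of these differences was that of 1768609_1, 1.58 (SE 0.39, adjusted p = 0.0483), where ASP was above 0 and α-MSH below 0 in all replicates. For 1787652_1 the difference was 1.15 (SE 0.22, adjusted p = 0.0108), with α-MSH replicates of -0.28, -0.28 and -0.09. Probes 1778165_1, 1788024_1 and 1787232_1 had differences of 1.00, 1.15 and 1.12, with adjusted p-values of 0.0222, 0.0383 and 0.0420, and each was below 0 in all 3 α-MSH replicates. All 5 thus had α-MSH values below 0 in every replicate at 2 days.

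For a few members the drugs lay close together at 2 days. Probe 1773422_1 had means of 1.02 with ASP and 1.05 with α-MSH, and the difference of -0.02 had a 95% interval from -1.03 to 0.99, too wide to tell the drugs apart or to show that they were alike. Probe 1797671_1 had 0.70 with ASP and 0.53 with α-MSH, a difference of 0.17 with an interval from -0.30 to 0.64. It was above 0 in all 3 replicates with both drugs at 2 days, and at 4 days too, where α-MSH gave 0.30, 0.62 and 0.39. At 3 days of α-MSH it was not. Its arrays there, before removal of the dye effect, ran from -0.40 to 0.29 with a median of -0.22. The rule used α-MSH at 3 and 4 days.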

How the data were processed

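Two-colour arrays compared treated with untreated melan-a RNA. The deposited values are log ratios, taken as log2 per probe. No source used here gives their base, centring or numerator, or how the authors normalized them. From every array its own median was subtracted. A dye term per probe, fitted over the arrays of a drug, was then taken out, and both arrays of a replicate were averaged, a missing value leaving the other alone. The labels do not say which arrays form a pair, so α-MSH arrays were paired by database number and ASP arrays by repeat number. The 30 replicates were fitted together with limma 3.58.1 (lmFit, eBayes) in R 4.3.3, each group mean against 0, with Benjamini-Hochberg adjustment over all probes tested and a threshold of 0.05. The script was tested on simulated data. The rule for members averaged the mean over Cy5 and the mean over Cy3 arrays.

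The members and all lists were chosen with earlier results of these data known. Probes were named in the text as the 12 largest late means, the 8 smallest adjusted p-values at 2 days, the 4 lowest 2-day means, the probes at each limit and the 4 largest and smallest SDs at 3 days; others were picked after their values were seen. Gene lists, marker lists and promoter motifs were not applied, since probes carried no gene names.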

Additional observations from a re-analysis of the deposited data

Results flagged for a closer look

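Of 58 sets of array values examined for 1 array far from the others, 4 stood out, where chance gives about 1 in 20. Some sets are single probes on the same arrays, so the sets are not independent, and no excess over chance is claimed. The values below are after removal of the dye effect. On the 6 arrays of ASP at 1 day the members' median was 0.73 on the direct array of repeat 1, while the next was 0.16 and the lowest -0.10. On the 6 arrays of α-MSH at 3 h the lowest median was -0.0703, the next 0.02 and the highest 0.07. Before that removal the medians of these arrays ran from -0.32 to 0.23, with the next lowest at -0.19. At 2 days of ASP, probe 1768609_1 was at 1.505 on 1 of 5 arrays, with the next at 0.93 and the lowest at 0.75. Probe 1795683_1 was at 1.21 on 1 of 5 arrays, with the next at 0.51 and the lowest at 0.24. The 5 members whose 2-day response differed between ASP and α-MSH were picked out by the test of the difference in limma. The causes were not tested.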

How the results depend on the processing

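The count of 13 members called at 2 days of ASP was 27 with arrays scaled to 1 median absolute value (all 13 among them), 2 with the spread of the ASP groups alone, 0 with that of the 2-day group alone, and 5 to 11 with 1 replicate left out; in the other 9 fits it was 10 to 18. With the pair number as a replicate block it was 13, the same probes, and same-numbered replicates did not deviate together (median correlation 0.04 in ASP and in α-MSH), so the numbers were not taken as pairs and the block changed no call. The median of 0.47 was 0.52 after scaling, 0.58 on Cy5 arrays alone, and 0.43 to 0.54 without 1 replicate. The 5 members differing between the drugs, an analysis chosen after the data were seen, became 0 with the spread of the 2 groups alone and 1 to 3 without 1 replicate. The rule itself gave 96 probes without centring, 116 after scaling, 79 and 30 at rises of 0.6 and 0.8, 26 and 90 at early limits of 0.2 and 0.4, and 36 to 98 without 1 replicate. No member was called with α-MSH before 3 days under any of 14 alternatives a time. Pairing ASP arrays by title numbers is the pairing used. Pairing the 2-day ASP arrays by order of their numbers made another array the lone one. It gave 14 calls, 12 of them among the 13. Where fewer replicates or groups set the spread, the fit has fewer degrees of freedom. The share of all probes called in each alternative fit is not given here. Other causes were not tested. The number of arrays limits the precision.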
